A study of Mus musculus with 2 samples.

Results

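The translation initiation factor genes described here are the protein-coding genes of GENCODE mouse release 21 whose symbol is Eif followed by a digit. There were 55 of them among 21938 nuclear protein-coding genes, spread over 20 chromosomes, and the rule that chose them used the symbol and no peak. By the digit in the symbol, 5 belonged to the Eif1 group, 15 to Eif2, 14 to Eif3, 16 to Eif4, 4 to Eif5 and 1 to Eif6. The question asked of each gene was whether SRCAP, the catalytic subunit of the complex that exchanges H2A for the variant H2A.Z in nucleosomes, had a called peak at its promoter.

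SRCAP was mapped by CUT&Tag, in which an antibody guides the Tn5 transposase to the protein under study, in 2 libraries of 1 group. Both came from SYAT cells, CGR8 mouse embryonic stem cells (mESC) carrying YPet-AID, a fluorescent protein with an auxin-inducible degron, fused to SRCAP in both srcap alleles, and the OsTir1 receptor as a stable transgene. The cells were in serum and LIF with auxinole, which keeps the degron from acting, and the antibody was anti-GFP, which binds YPet. Each library used 200000 cells with 10000 Drosophila nuclei as spike-in and 1 h of transposition. SYAT is 1 engineered line, all values refer to the tagged protein, and cells treated with auxin or a library without the tag were not analysed here. The labels number the replicates, and the study states in general that its replicates were cultured and treated separately. Peak lists hold no expression, so the embryonic stem cell identity could not be checked against markers.

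Translation initiation brings the ribosome to the start codon of a messenger RNA. eIF2 delivers the initiator tRNA, eIF1 and eIF1A hold the small subunit in a scanning state, eIF3 is the large scaffold on that subunit, and the eIF4 factors recognise the cap and unwind the leader. eIF5 and eIF5B then act in GTP hydrolysis and subunit joining, and phosphorylation of eIF2 by stress kinases lowers initiation in the cell as a whole.

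Replicate 1 had 6158 peaks, fewer than the 12958 of replicate 2. A peak score is 10 times the −log10 of the peak caller's q-value, and in both lists the lowest score was 13. Scores depend on sequencing depth, which the lists do not give, so they are ranked only within a list, and a gene without a peak cannot be called free of SRCAP. A gene was called bound in a replicate when a peak overlapped any of its promoter windows, which began 1000 bp before a transcription start site (TSS) and ended 500 bp after it.

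The DNA under member peaks found in both replicates is shown first, since these stretches carry the SRCAP calls that do not rest on 1 library. The 6 members shown are those whose lower rank of score in both lists was best, from Eif4g2 to Eif3b, whose scores of 35 and 36 are middling in their lists. Each line is all or part of the 200 bp at the centre of the stretch covered by peaks of both replicates. The bases run 5′ to 3′ on the strand of the gene, from GRCm38 (mm10). Windows that reached into annotated leaders were shortened to hold at most 30 leader bases, so the lines of Eif2ak4, Eif2a and Eif2s1 are off centre. The Eif2a window lay wholly in annotated leader, and all 30 bases of its line are leader. Capitals mark a GC box (GGGCGG on either strand), the only one of 8 searched motifs that was found in these stretches. The stretches were at chr7:111083197-111083396 (minus strand) for Eif4g2, chr11:69921539-69921738 (minus) for Eif5a, chr2:118388515-118388647 (plus) for Eif2ak4, chr3:58525562-58525591 (plus) for Eif2a, chr12:78861753-78861848 (plus) for Eif2s1 and chr5:140418770-140418969 (plus) for Eif3b.
Eif4g2: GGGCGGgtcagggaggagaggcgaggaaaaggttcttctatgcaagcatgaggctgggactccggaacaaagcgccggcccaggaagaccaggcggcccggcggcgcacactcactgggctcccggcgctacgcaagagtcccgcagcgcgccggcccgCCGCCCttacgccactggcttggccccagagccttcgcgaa
Eif5a: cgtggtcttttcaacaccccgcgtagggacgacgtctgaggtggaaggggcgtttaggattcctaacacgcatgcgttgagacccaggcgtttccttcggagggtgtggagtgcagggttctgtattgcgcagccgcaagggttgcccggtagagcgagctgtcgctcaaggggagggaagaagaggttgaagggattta
Eif2ak4: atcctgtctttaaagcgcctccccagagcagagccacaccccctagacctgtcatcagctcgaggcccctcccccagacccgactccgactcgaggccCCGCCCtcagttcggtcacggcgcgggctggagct
Eif2a: ggaggctcggctctgatcgcggtgcctacg
Eif2s1: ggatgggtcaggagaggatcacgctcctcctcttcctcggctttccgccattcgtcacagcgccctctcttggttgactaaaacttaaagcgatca
Eif3b: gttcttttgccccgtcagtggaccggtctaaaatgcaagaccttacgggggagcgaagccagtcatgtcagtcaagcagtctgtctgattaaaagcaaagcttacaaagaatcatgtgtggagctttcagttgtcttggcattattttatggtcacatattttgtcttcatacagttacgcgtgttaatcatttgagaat

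The stretch at Eif4g2 had a GC content of 69.5% and 21 CpG dinucleotides in 200 bp. The stretch at Eif3b had 42.0% GC and 6 CpG in the same length. The Eif5a stretch had 58.0% GC and 15 CpG, and held none of the searched motifs.

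A promoter peak was called at 12 of the 55 genes in replicate 1, which is 21.8% (95% Wilson interval 12.9 to 34.4%), against 15.7% of all coding genes. In replicate 2 it was called at 26 genes, 47.3% (34.7 to 60.2%), against 30.4%. In both replicates it was called at 9 genes, 16.4% (8.86 to 28.3%), against 12.0%. The share of all coding genes thus lay inside the interval in replicate 1 and for both replicates, and below it in replicate 2. With each list reduced to 6158 peaks, 14 members were bound in replicate 2, 25.5% (15.8 to 38.3%), against 19.2%, which lay inside the interval. The intervals cover counting error only, and no test was made. A further 3 members were bound in replicate 1 only, 17 in replicate 2 only and 26 in neither (47.3%). Among the 21938 coding genes these counts were 802, 4017 and 14476 (66.0%). Of the members bound in replicate 1, 75.0% were also bound in replicate 2, and for all coding genes this was 76.7%.

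Members and coding genes differed in promoter CpG content. A promoter was called CpG-rich when the 300 bp from 250 bp before to 50 bp after the representative TSS had at least 50% GC and a CpG observed/expected ratio of at least 0.6. This was the case for 43 members (78.2%) and for 43.8% of all coding genes. Among CpG-rich genes, members and background stood closer together. In replicate 1, 11 of the 43 CpG-rich members were bound, 25.6% (14.9 to 40.2%), against 25.4% of CpG-rich coding genes. In replicate 2, 20 were bound, 46.5% (32.5 to 61.1%), against 48.1%. In both replicates, 8 were bound, 18.6% (9.74 to 32.6%), against 20.2%. All of these background values lay inside the intervals, so these counts did not set the CpG-rich members apart. Of the 12 members without such a promoter, 1 was bound in replicate 1 (8.33%, 1.49 to 35.4%) and 6 in replicate 2 (50.0%, 25.4 to 74.6%), against 8.16% and 16.5% of coding genes of that kind. In replicate 2 the background thus lay below the interval for these 12 members, whose share was close to the 46.5% of the CpG-rich members. Members also had more annotated start sites, a median of 4 against 3, and CpG-rich coding genes had 5. The part of CpG content or of the number of start sites in the members' shares was not tested.

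**Figure D1:**
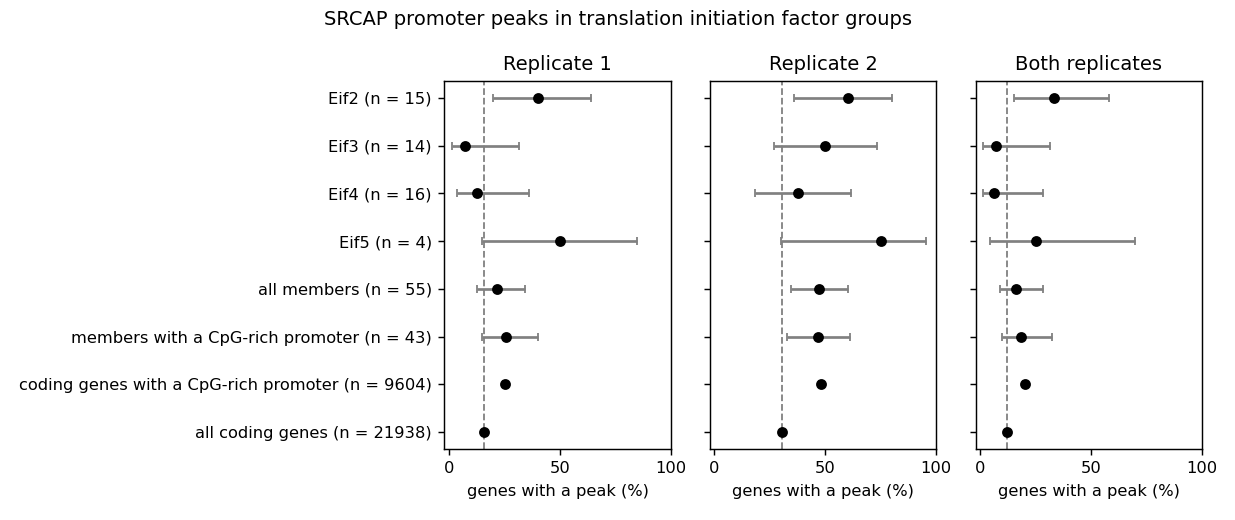
The plots give the percentage of genes with a promoter peak in replicate 1, replicate 2 and both replicates (x axis, %) for the Eif groups and the background sets (y axis), with 95% Wilson intervals as bars for the Eif sets and the share of all coding genes as a dashed line. Eif2 lay highest of the larger groups in both replicates (33.3%), and the CpG-rich members (18.6%) lay next to the CpG-rich coding genes (20.2%).

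The groups differed in their counts. Of the 15 Eif2 genes, 6 were bound in replicate 1 (40.0%, 19.8 to 64.3%), 9 in replicate 2 (60.0%, 35.7 to 80.2%) and 5 in both (33.3%, 15.2 to 58.3%). These intervals lay above the shares of all coding genes and held the shares of CpG-rich coding genes. With the full lists, the position above all coding genes rested on Eif2s3x in replicate 1 and in both replicates. Without peaks at least 50% soft-masked this gene left both counts, with 5 of 15 in replicate 1 (15.2 to 58.3%, against 15.6%) and 4 of 15 in both (10.9 to 52.0%, against 11.9%). With a TSS required inside the peak, 2 of 15 were bound in both (3.74 to 37.9%, against 6.97%). Lists of equal length gave 4 of 15 in both (10.9 to 52.0%), still above the 9.69% of coding genes. Windows of 250 bp on both sides also gave 4 of 15, with 11.0% of coding genes inside the interval. Of the 14 Eif3 genes, 1 was bound in replicate 1 (7.14%, 1.27 to 31.5%) and 7 in replicate 2 (50.0%, 26.8 to 73.2%), with 1 in both. Of the 16 Eif4 genes, 2 were bound in replicate 1 (12.5%, 3.5 to 36.0%), 6 in replicate 2 (37.5%, 18.5 to 61.4%) and 1 in both. For Eif3 and Eif4 the intervals held the shares of all coding genes in every case. All 4 Eif5 genes had a peak in at least 1 replicate, as did 34.0% of all and 53.3% of CpG-rich coding genes. Of these 4 genes, 2 were bound in replicate 1 (15.0 to 85.0%), 3 in replicate 2 (30.1 to 95.4%) and 1 in both (4.56 to 69.9%). The respective shares of all coding genes, 15.7%, 30.4% and 12.0%, lay inside these intervals. In the Eif1 group 1 of 5 was bound, in both replicates (3.62 to 62.4%). This interval held the 15.7%, 30.4% and 12.0% of all coding genes, so the count did not set the Eif1 group apart. The gene of eIF6, which keeps free large ribosomal subunits apart from small ones, was bound in neither replicate. The intervals of Eif2, Eif3 and Eif4 overlapped each other in each replicate.

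The order of the groups by score was not the same in both lists. In replicate 2 the 9 Eif2 peaks had scores from 27 to 145 with a median of 61. The 7 Eif3 peaks ran from 18 to 42 with a median of 25, all below the Eif2 median. The 6 Eif4 peaks ran from 13 to 118 with a median of 37, and the 3 Eif5 peaks from 51 to 112 with a median of 59. Over all members the median in replicate 2 was 40, and over the promoter peaks of all coding genes 44. In replicate 1 the 12 member peaks had scores from 18 to 99 with a median of 38, against 36 for all coding genes. There the 6 Eif2 peaks had a median of 44, below the 56 of the 2 Eif4 peaks and the 61 of the 2 Eif5 peaks, and the 1 Eif3 peak had a score of 35.

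**Figure D2:**
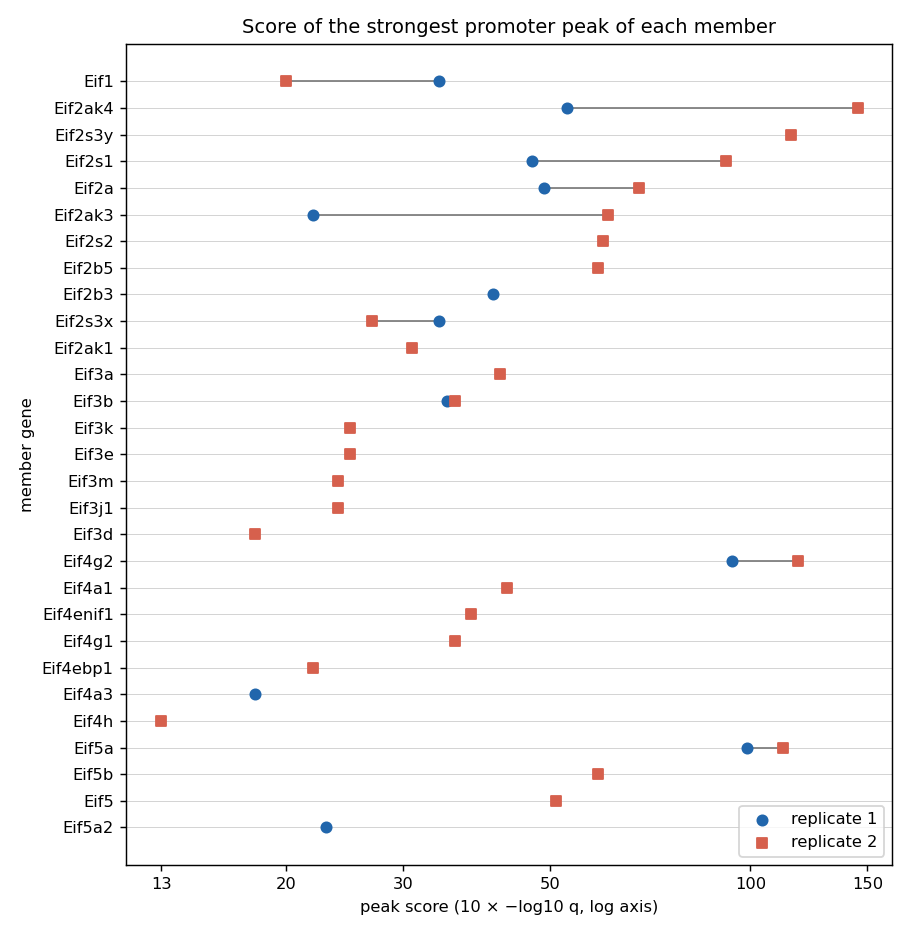
Each point is the score of the strongest promoter peak of a member (x axis, 10 × −log10 q on a log scale) in replicate 1 (circle) or replicate 2 (square), with a line joining both for the genes bound in both (y axis, genes by group). Eif2ak4 (145), Eif4g2 (118), Eif2s3y (115) and Eif5a (112) lay highest in replicate 2, and the Eif3 genes lay between 18 and 42.

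The eIF2 complex is a trimer of alpha, beta and gamma subunits, which are encoded by Eif2s1, Eif2s2 and the X- and Y-linked pair Eif2s3x and Eif2s3y. All 4 genes had a promoter peak in replicate 2 (51.0 to 100.0%), against 30.4% of all and 48.1% of CpG-rich coding genes, and 2 of them also in replicate 1 (15.0 to 85.0%), against 15.7% and 25.4%. At Eif2s1, whose product is the subunit phosphorylated under stress, the peak spanned chr12:78861635-78862069 with a score of 47 in replicate 1 and chr12:78861501-78862085 with a score of 92 in replicate 2. Both covered the TSS, with midpoints 33 bp downstream and 26 bp upstream of it, and the stretch printed above lies in their shared part. The opposite-strand gene Atp6v1d starts 181 bp away, so the peak stands at the promoters of both genes. At Eif2s2, a peak with a score of 60 was called in replicate 2 only, with its midpoint 27 bp downstream of a TSS.

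The X- and Y-linked gamma subunit genes differed in strength and position. At Eif2s3y the peak of replicate 2 spanned chrY:1010259-1010650 with a score of 115, in the strongest 3.82% of its list, and its midpoint lay 88 bp upstream of the TSS. No promoter peak was called at Eif2s3y in replicate 1. At Eif2s3x the score was 34 in replicate 1 (chrX:94213461-94213781) and 27 in replicate 2 (chrX:94212950-94213294). These peaks did not overlap. They were 166 bp apart, with midpoints 759 bp and 260 bp upstream of the nearest TSS, and 52.0% of the bases of the former were soft-masked, that is, repeat sequence in the assembly. Without peaks at least 50% soft-masked, Eif2s3x was bound in replicate 2 only and 8 members were bound in both. The paralogs are similar in sequence, so the values of either gene are uncertain where reads could map to both.

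Among the kinases that phosphorylate eIF2, 3 of 4 were bound in replicate 2 (30.1 to 95.4%) and 2 of them also in replicate 1 (15.0 to 85.0%), beside 30.4% and 15.7% of all coding genes. Eif2ak4 encodes GCN2, which responds to uncharged tRNA. Its peaks spanned chr2:118388367-118388861 with a score of 53 and chr2:118388361-118388981 with a score of 145, the highest member score and in the strongest 1.88% of replicate 2. The midpoints lay 4 bp upstream and 53 bp downstream of the TSS. Eif2ak4 was also the only member with a peak inside the gene and outside its own promoter windows in both replicates, at chr2:118430842-118431148 (score 35) and chr2:118430777-118431121 (score 89). Eif2ak3 encodes PERK, the kinase of the unfolded protein response. Its peaks at chr6:70843983-70844475 (score 22) and chr6:70844208-70844446 (score 61) lay upstream of the TSS, with midpoints 286 bp and 188 bp from it. Eif2ak1, the heme-regulated kinase, had a peak in replicate 2 only, with a score of 31 and a midpoint 300 bp upstream. Eif2ak2, the kinase activated by double-stranded RNA, had none, and the nearest peak to its start sites was 85226 bp away in replicate 1 and 23162 bp away in replicate 2.

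The eIF2B complex, which reloads eIF2 with GTP, had a promoter peak at 1 of its 5 subunit genes in each replicate (interval 3.62 to 62.4%), against 15.7% and 30.4% of all coding genes, and at none in both. Eif2b3 had a peak in replicate 1 only (score 41, midpoint 254 bp downstream of a TSS) and Eif2b5, the catalytic subunit, in replicate 2 only (score 59, midpoint 226 bp upstream). Eif2b1, Eif2b2 and Eif2b4 had none, and the nearest peaks in replicate 2 were 43135, 68092 and 8771 bp away. Eif2b1 starts 9 bp and Eif2b4 95 bp from an opposite-strand coding gene, Gtf2h3 and Snx17, and no peak was called at these shared promoters.

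Outside the trimer, Eif2a and Eif2d encode tRNA-binding initiation factors that are distinct from eIF2. Eif2a had peaks at chr3:58525522-58525792 (score 49) and chr3:58525531-58526075 (score 68), with midpoints 164 bp and 18 bp upstream of its TSS. Its promoter is shared with Serp1, 71 bp away on the opposite strand. Eif2d had no promoter peak, and a peak with a score of 40 inside the gene in replicate 2.

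In the Eif1 group, the paralogs that encode the start codon selection factor eIF1 differed in their call. Eif1 was bound in both replicates, at chr11:100319657-100319988 (score 34) and chr11:100319623-100319886 (score 20), with midpoints 62 bp and 130 bp upstream of the TSS. Its paralog Eif1b had no promoter peak, with the nearest peaks 89939 bp and 84022 bp away. Eif1a and Eif1ax, paralogs that encode eIF1A, and Eif1ad had no promoter peak in either replicate. Within this group all 5 promoters were CpG-rich, so that the bound and the unbound paralogs shared this feature.

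The promoters of Eif1 and Eif1b are printed because this pair differed in its call although both are GC-rich. The sequences run from the plus strand of GRCm38, at chr11:100319635-100319914 for Eif1 and chr9:120492288-120492490 for Eif1b, shortened to leave out most of the leader. Capitals mark motif matches on either strand. In Eif1 there were matches to the short NFY motif, the GC box and the YY1 motif AAGATGG. In Eif1b there were 3 GC boxes and the ETS motif CCGGAAG.
Eif1: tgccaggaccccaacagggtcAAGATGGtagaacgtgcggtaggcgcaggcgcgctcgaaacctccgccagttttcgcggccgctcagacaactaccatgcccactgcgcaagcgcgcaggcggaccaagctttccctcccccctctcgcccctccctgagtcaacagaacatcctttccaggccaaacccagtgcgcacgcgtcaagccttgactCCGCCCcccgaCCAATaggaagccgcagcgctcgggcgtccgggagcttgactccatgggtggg
Eif1b: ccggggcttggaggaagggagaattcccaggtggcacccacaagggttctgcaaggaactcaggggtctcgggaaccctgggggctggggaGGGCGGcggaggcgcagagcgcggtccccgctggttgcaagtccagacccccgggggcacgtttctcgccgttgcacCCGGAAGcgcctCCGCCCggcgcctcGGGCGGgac

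The printed part of Eif1 had 65.0% GC and that of Eif1b 71.9%. Motif matches describe these letters and are not binding sites.

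Of the eIF3 genes, 6 were bound in replicate 2 alone, 1 in both replicates and 7 in neither. The last are 50.0% of the group, against 66.0% of all and 46.7% of CpG-rich coding genes. Eif3b, which encodes a core scaffold subunit, was bound in both replicates, at chr5:140418684-140418999 (score 35) and chr5:140418739-140419262 (score 36). Both peaks lay wholly upstream of the TSS, with midpoints 486 bp and 328 bp from it, and covered the GC-poor stretch printed above. In replicate 2 only, Eif3a (score 42), Eif3e (25), Eif3k (25), Eif3j1 (24), Eif3m (24) and Eif3d (18) had a peak. All 7 Eif3 peaks of replicate 2 had scores below 44, the median of all coding promoter peaks of that list. At Eif3k the midpoint lay nearer to the start of Map4k1, 112 bp away, than to its own. The other genes, Eif3c, Eif3f, Eif3g, Eif3h, Eif3i, Eif3j2 and Eif3l, had no promoter peak. Eif3j1 and Eif3j2 encode closely related forms of the loosely attached subunit, and their calls are uncertain where reads could map to both. With each list reduced to the same length of 6158 peaks, 0 of the 14 Eif3 genes were bound in both replicates (0.0 to 21.5%), beside 9.69% of coding genes, 4 of 15 Eif2 genes and 1 of 16 Eif4 genes.

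Of the eIF4 genes, 1 was bound in both replicates. This gene, Eif4g2, encodes a relative of the eIF4G scaffold that lacks the site for the cap-binding protein. Its peaks were at chr7:111082981-111083611 with a score of 94 and chr7:111082932-111083614 with a score of 118, in the strongest 4.11% and 3.59% of their lists. They were 631 bp and 683 bp wide, and the midpoints lay 266 bp and 243 bp upstream of the nearest TSS. The canonical scaffold Eif4g1 had a peak in replicate 2 only, with a score of 36 and its midpoint 248 bp upstream. Eif4g3 had no promoter peak, although 2 weak peaks of replicate 2 lay inside the gene with scores of 20 and 18, and the nearest peak was 1012 bp from a start site.

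The helicase genes Eif4a1, Eif4a2 and Eif4a3 each had a different call. Eif4a1 had a peak in replicate 2 only (score 43, midpoint 52 bp upstream). Eif4a3, whose product is a core protein of the exon junction complex, had one in replicate 1 only (score 18, midpoint 54 bp downstream). Eif4a2 had none, with the nearest peaks 16967 bp and 7273 bp from its start sites. The cofactors of the helicase also differed, with a peak of the minimum score of 13 at Eif4h in replicate 2 and none at Eif4b.

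No promoter peak was called at any of the 4 genes of the cap-binding eIF4E family, Eif4e, Eif4e1b, Eif4e2 and Eif4e3. A count of 0 of 4 has an interval of 0.0 to 49.0%, which holds the shares of all coding genes. The nearest peaks to their start sites in replicate 2 were 36445, 5203, 3655 and 25145 bp away. Their promoters were CpG-rich in 2 of 4 cases. At Eif4e2, 2 peaks of replicate 2 lay inside the gene, with scores of 31 and 35. Among the genes of the inhibitory eIF4E-binding proteins, Eif4ebp1 had a peak in replicate 2 only (score 22, midpoint 64 bp upstream), and Eif4ebp2 and Eif4ebp3 had none, with the nearest peaks of replicate 2 at 23090 bp and 5943 bp. Eif4enif1, whose product carries eIF4E into the nucleus, had a peak in replicate 2 only (score 38, midpoint 30 bp downstream).

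In the Eif5 group, Eif5a had the highest score in both replicates. It encodes the hypusine-bearing factor that helps the ribosome through elongation and termination. Its peaks were at chr11:69921390-69921886 with a score of 99, in the strongest 3.56% of replicate 1 and the highest member score there, and at chr11:69921332-69921891 with a score of 112, in the strongest 4.11% of replicate 2. The midpoints lay 252 bp and 226 bp upstream of the nearest annotated TSS. They also lay 320 bp and 346 bp downstream of the representative TSS, whose 300 bp promoter had 43.3% GC and was not CpG-rich, while the peaks themselves had 56.7% and 57.7%. A call based on the promoter of the representative transcript therefore places Eif5a with the genes without a CpG-rich promoter. It failed on GC content only, since its CpG observed/expected ratio of 0.79 was above the minimum of 0.6. The paralog Eif5a2 had a peak in replicate 1 only (score 23, midpoint 298 bp downstream). Eif5, which encodes the GTPase-activating factor, had a peak in replicate 2 only (score 51, midpoint 171 bp upstream). Eif5b had one there too, with a score of 59, but the midpoint lay 864 bp upstream of the nearest Eif5b start. It was 78 bp from a start site of the opposite-strand gene Txndc9, another of whose start sites lay 117 bp from the Eif5b TSS.

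Both replicates gave similar places for the genes bound in both. The peaks of the replicates overlapped each other at 8 of these 9 genes (88.9%), and at 94.5% of the coding genes bound in both, with Eif2s3x as the exception among members. Ranked by score, these 9 genes fell in a similar order in each list (Spearman rho 0.812), which is a description, since the genes share the 2 libraries and their depths.

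Member peaks lay mostly upstream of the nearest start site of the gene. In replicate 1, 8 of 12 midpoints were upstream, 66.7% (39.1 to 86.2%), against 52.6% for all coding genes. In replicate 2, 21 of 26 were upstream, 80.8% (62.1 to 91.5%), against 52.3%. Among CpG-rich coding genes the shares were 56.3% and 56.7%. In replicate 2 these values lay below the interval of the members, and in replicate 1 inside it. Of the 9 members bound in both replicates, 8 had an upstream midpoint in replicate 1 and 8 in replicate 2, with Eif2s1 and Eif2ak4 as the respective exceptions. Member midpoints had a median signed position of −113 bp in replicate 1 and −128 bp in the other, against −10.0 and −7.75 bp for all coding genes. The window reaches farther upstream than downstream for members and background alike. Measured from the representative TSS instead, 7 of 12 and 21 of 26 midpoints were upstream. The distance from the representative TSS was at most 250 bp for 5 of 12 member peaks (41.7%) and 18 of 26 (69.2%), against 57.1% and 57.5%, so members were not closer to it in both replicates.

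**Figure D3:**
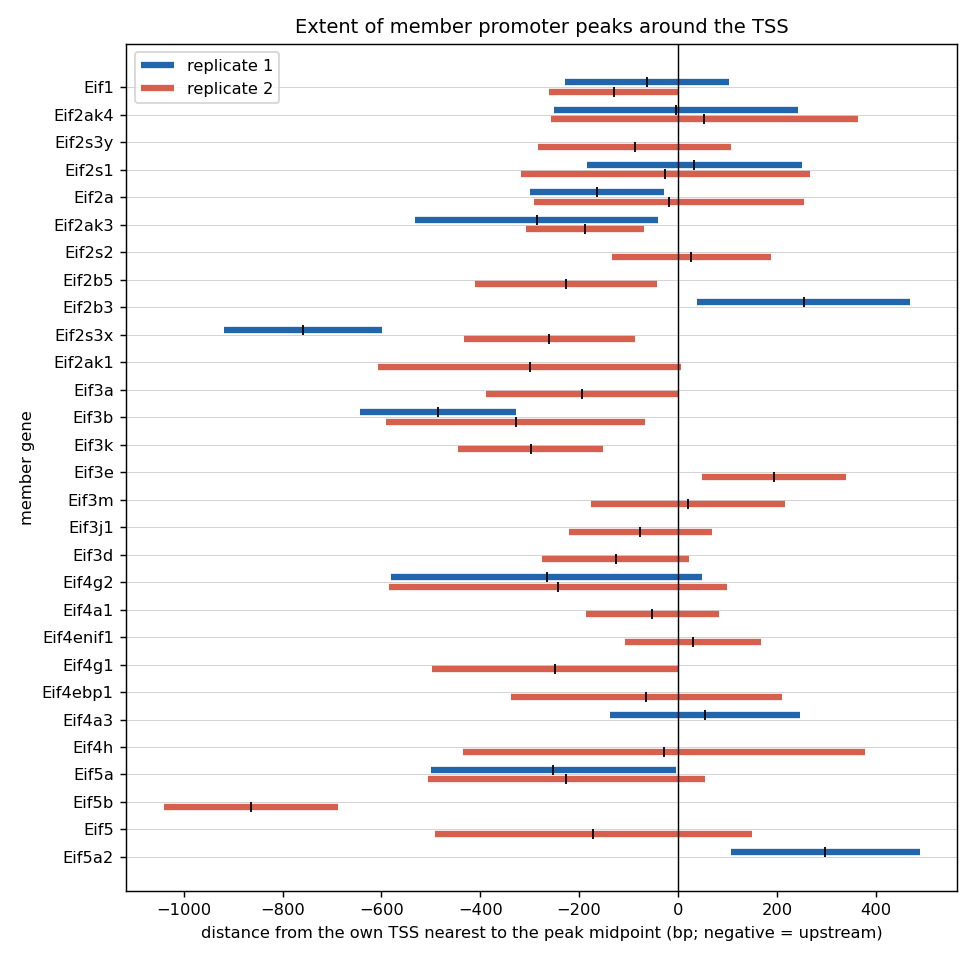
Bars show the extent of each member's strongest promoter peak in replicate 1 (blue) and replicate 2 (red), with a tick at the midpoint, by distance in bp from the own start site nearest to the midpoint (x axis, negative is upstream; y axis, genes by group). In replicate 2, 21 of 26 ticks lie left of 0, and the farthest is that of Eif5b, 864 bp upstream.

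A total of 26 members had no promoter peak in either replicate, 47.3% against 66.0% of all coding genes and 46.7% of CpG-rich coding genes. The distance from their start sites to the nearest peak ranged from 10637 to 831921 bp in replicate 1 (median 80488 bp) and from 1012 to 121103 bp in replicate 2 (median 30795 bp). In replicate 1 none of the 26 had a peak within 10000 bp of a start site, and in replicate 2 there were 8. These distances were not measured for other coding genes without a peak, so they do not set the members apart. Eif4g3, with a peak 1012 bp from a start site, came nearest to the window.

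CpG content did not separate the calls within the family. The median CpG observed/expected ratio was 0.88 for the 9 members bound in both replicates (0.71 to 1.05) and 0.74 for the 26 bound in neither (0.15 to 1.22), and the ranges overlapped. A CpG-rich promoter was found at 8 of the 9 members bound in both (88.9%) and at 20 of the 26 bound in neither (76.9%). Among all coding genes these shares were 73.6% and 31.1%. Most of the members without a peak carried the promoter type that was bound more often across the genome.

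**Figure D4:**
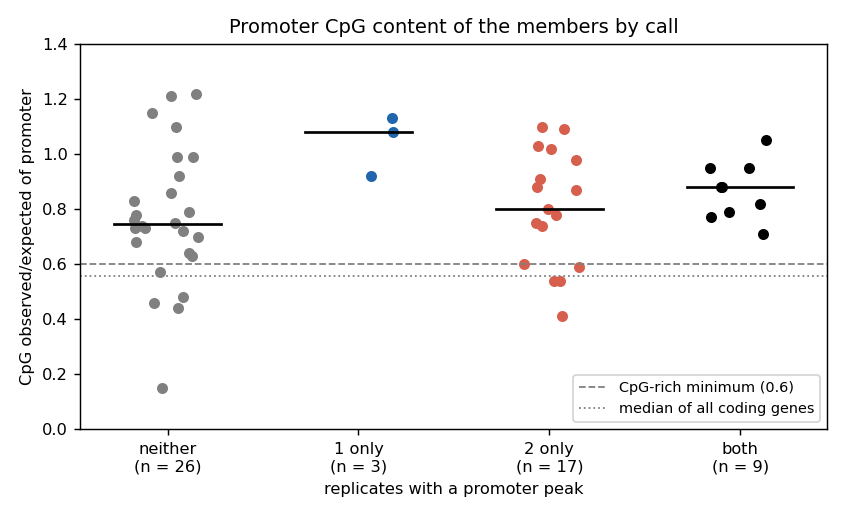
Points give the CpG observed/expected ratio (y axis) of the 300 bp representative promoter of each member, by the replicates with a promoter peak (x axis), with black lines at the medians, a dashed line at the minimum of 0.6 for a CpG-rich promoter and a dotted line at the median of all coding genes (0.557). The medians were 0.74 for neither and 0.88 for both, and 4 members bound in replicate 2 only lay below 0.6 beside Eif2s3y at 0.6.

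Of the motifs searched on both strands of the representative promoters, the ETS motif CCGGAAG differed most, in percentage points, between members and CpG-rich coding genes. It was present in 18 of 55 members (32.7%), against 11.2% of all coding genes and 19.7% of CpG-rich ones. Among members bound in both replicates 1 of 9 held it, that of Eif2s1, among those bound in 1 replicate 5 of 20, and among those bound in neither 12 of 26 (46.2%). Over all coding genes the order was the other way round, with 17.4% of the genes bound in both and 8.29% of those bound in neither. The GC box was found in 76.4% of members, against 45.4% of coding genes and 76.9% of CpG-rich ones. The CCAAT box of NFY was found in 27.3% of members, below the 38.6% of all coding genes and the 36.6% of CpG-rich ones. The motif of YY1 was found in 9.09% of members, 6.31% of all and 7.09% of CpG-rich coding genes, and that of NRF1 (GCATGCGC) in 3.64%, 3.72% and 6.24%. The E-box (CACGTG) was found in 10.9%, 7.71% and 11.5%, so members lay above all coding genes and below CpG-rich ones. For TATAAA the shares were 7.27%, 12.6% and 4.71%, with the opposite order. For TCTCGCGA they were 3.64%, 1.39% and 2.76%, and each of these motifs was found in at most 6 members. None of these motifs contains another. The differences between these shares were not tested.

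Divergent promoters were as frequent as among CpG-rich genes. A coding gene on the opposite strand started within 1000 bp of 10 members (18.2%), against 10.7% of all and 18.9% of CpG-rich coding genes. Of these 10, 2 were bound in both replicates, Eif2a and Eif2s1, and 5 in neither. Across all coding genes with such a neighbour, 25.0% were bound in both and 40.9% in neither. A peak there cannot be assigned to either gene.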

How the data were processed

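SRCAP-YPet CUT&Tag was available for 2 replicates of 1 group. For each library the authors deposited 1 list of peaks with position, name and a score, called in that library alone. The score was read as 10 times the −log10 q of MACS2, cut to a whole number, since its minimum of 13 matches a q of 0.05. The submitters' processing notes name STAR, Picard and MACS2 with the builds mm10 and dm6. The study's methods, in a section on both assays, describe reducing alignments by factors from the Drosophila reads before MACS2 is run, which bears on list length and score. That section also removes mitochondrial reads, yet each list holds 6 mitochondrial peaks, so it is uncertain which of its steps these lists went through. For ChIP-seq, its reporting form names a MACS2 call against input. Whether an input was used for these CUT&Tag lists is not given in the sources used here, and the lists give no depth.

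Genes and start sites came from GENCODE mouse release 21 on GRCm38. The 13 mitochondrial coding genes were left out. The representative TSS was that of the transcript with the best APPRIS tag, then the best support level, then the greatest length. Sequence features were read from 21853 coding genes with sequence for that TSS. A divergent neighbour was a coding gene on the opposite strand with a TSS within 1000 bp. Shares carry 95% Wilson intervals. Because the members form a chosen list in 1 group, no p-value was computed. Values were given for members bound in both replicates and for paralog families whatever their call, and the sequences for the 6 members with the best worst rank and for 1 paralog pair.

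The members, gene lists and motifs were chosen with earlier results of these data known. Alternatives covered the window, the start sites, the overlap, the score, list length, soft-masked peaks, the background and each replicate. The overlap code was tested on simulated data. Tools were scipy 1.17.1, pandas 2.3.3, numpy 2.4.6 and matplotlib 3.10.9, under Python 3.11.15.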

Additional observations from a re-analysis of the deposited data

How the results depend on the processing

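Of 96 alternative values for 11 results, 71 stayed within 1.5-fold of a count or within the interval or spread of a value, and 25 moved past that. The order of members and coding genes turned around in 3 cases, given below. With a TSS required inside the peak, 5 members were bound in replicate 1 and 4 in both replicates, against 12 and 9. With a score of at least 50, 3 were bound in replicate 1, 11 in replicate 2 and 3 in both, beside 4.21%, 13.1% and 2.99% of coding genes, and the intervals of the members (1.87 to 14.9%, 11.6 to 32.4% and 1.87 to 14.9%) held these shares. With lists of equal length, 14 were bound in replicate 2, against 26. Leaving out 1 replicate leaves a single list, with 12 to 26 members bound. Each of these settings is stricter or drops a list by its construction. The share of members exceeded that of coding genes in 10 of 11 settings in replicate 1, where it was 9.09% against 9.73% if the peak had to contain a TSS. It did so in 10 of 11 in replicate 2 and 11 of 12 for both replicates, with CpG-rich promoters as the exception (46.5% against 48.1%, and 18.6% against 20.2%). The Eif2 count in both replicates ranged from 1 at a score of at least 50 to 5 in the settings that keep both lists, and the Eif3 count from 0 to 1. The requirements that the own TSS be nearest (12, 24 and 9 members) and that the replicates' peaks overlap (8 members) were chosen after seeing the data.

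No paired analysis was possible because the libraries form a single group. Medians and sides of peaks belong to 1 list each, so leaving out a replicate gives no further value for them. Depth is unknown, so calls in 1 replicate or in neither do not show that SRCAP was absent.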

Other observations

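Other genes of translation were listed by function. Of 53 symbols, 51 were found in the annotation. A promoter peak was called at 10 of the 51 in replicate 1 (19.6%), 29 in replicate 2 (56.9%) and 8 in both (15.7%), and 42 (82.4%) had a CpG-rich promoter. These shares stand beside 15.7%, 30.4% and 12.0% of all coding genes and 25.4%, 48.1% and 20.2% of CpG-rich ones. Among 6 genes of the eIF2 stress pathway, 3 were bound in both replicates, with an interval of 18.8 to 81.2%, which lies above the share of all coding genes and holds that of CpG-rich ones. They were Impact, an inhibitor of GCN2 (scores 34 and 87), Gcn1l1, which activates GCN2 (21 and 20), and Ddit3, the stress transcription factor CHOP (46 and 45). Atf4, whose messenger RNA is translated when eIF2 is phosphorylated, had a peak in replicate 2 only (score 41), as did the phosphatase subunit gene Ppp1r15b (34), while Ppp1r15a had none.

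Of 9 elongation factor genes, 1 was bound in replicate 1 (1.99 to 43.5%) and 5 in replicate 2 (26.7 to 81.1%), and the shares of all coding genes lay inside both intervals. Eef1a1, the factor that brings aminoacyl-tRNA to the ribosome, was bound in both (scores 53 and 101), and Eef2, the translocation factor, in neither. Of 4 termination and recycling genes, 3 were bound in replicate 2 (30.1 to 95.4%, against 30.4% of all coding genes) and 0 in replicate 1 (0.0 to 49.0%, against 15.7%). Of 13 initiation partners, Paip2b (40 and 66) was bound in both, and the interval of 1.37 to 33.3% holds the 12.0% of all coding genes. Of 19 cytosolic tRNA synthetase genes, 4 were bound in replicate 1 (8.51 to 43.3%), 11 in replicate 2 (36.3 to 76.9%, above the 30.4% of all coding genes and around the 48.1% of CpG-rich ones) and 3 in both (5.52 to 37.6%). The last were Dars (30 and 43), Eprs (18 and 59) and Sars (37 and 21).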
